A study of Mus musculus with 14 samples.

Results

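The 7 genes described here encode the machinery of antigen presentation by MHC class II in the mouse: H2-Aa and H2-Ab1 (the α and β chains of the H2-A molecule), H2-Ea and H2-Eb1 (the chains of H2-E), H2-DMa, Cd74 and Ciita. They were chosen by name, and all 7 were found on the array through its annotation, with 8 of the 12422 probe sets that are not controls. RNA of transplanted hearts was measured on MG-U74Av2 oligonucleotide arrays, 1 array per sample and 14 in all. Rejecting allografts at day 7 (n = 3) were Balb/c hearts in C57/BL6 recipients. Tolerizing allografts at day 7 (n = 3) and day 70 (n = 3) were Balb/c hearts in C57/BL6 recipients that received monoclonal antibodies against CD80 and CD86, the costimulatory ligands that T cells need for full activation. Isografts at day 7 (n = 3) and day 70 (n = 2) were C57/BL6 hearts in C57/BL6 recipients without a named agent. Recipients were of the same strain in all 5 groups, while the donors of allografts and isografts were of different strains. Differences between allografts and isografts that are due to donor strain or to the response to the graft therefore cannot be told apart. The labels do not say whether the samples of a group came from separate animals or operations, so p-values measure only the spread between these samples.

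MHC class II molecules carry peptides from endocytosed proteins to the cell surface, where CD4 T cells read them. The chains assemble in the endoplasmic reticulum with the invariant chain, encoded by Cd74, which fills the groove and directs the complex to endosomes. There the invariant chain is cut down to a short peptide, and H2-DM, of which H2-DMa is the α chain, exchanges that peptide for others. CIITA is the coactivator without which class II genes are hardly transcribed, and interferon-γ induces it in cells that do not make class II constitutively. Dendritic cells, B cells and activated macrophages carry class II, and in an inflamed heart endothelial cells can acquire it. H2-Ea is a special case in these grafts: C57BL/6 mice carry a deletion in this gene and make no H2-E α chain, so its transcript is expected from cells of the Balb/c heart. The other 6 genes can be transcribed by cells of graft and recipient alike.

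In the RefSeq annotation of GRCm38.p6, 5 of the genes lie in the MHC on chromosome 17: H2-DMa at chr17:34119693-34139101, H2-Ab1 at chr17:34263227-34269418, H2-Aa at chr17:34282744-34287823, H2-Eb1 at chr17:34305867-34316674 and H2-Ea at chr17:34341952-34344645. That build is of C57BL/6, and it lists H2-Ea as a transcribed pseudogene. Class II promoters are known for a shared module of an X and a Y box, to which the RFX and NF-Y factors bind and which CIITA needs. The 120 bases before the start of H2-Aa and H2-Eb1 are shown because these were the closest members over all arrays and share this layout. Whether layout and signal are linked was not tested. The bases are from RefSeq (GRCm38.p6, 5′ to 3′ on the strand of the gene), at chr17:34287824-34287943 on the minus strand for H2-Aa and chr17:34305747-34305866 on the plus strand for H2-Eb1. Capitals mark GCAACT and TGATTGG, 2 motifs that were written down after these promoters had been read. TGATTGG contains ATTGG, the reverse complement of CCAAT, which is the core that NF-Y is known to bind.
H2-Aa: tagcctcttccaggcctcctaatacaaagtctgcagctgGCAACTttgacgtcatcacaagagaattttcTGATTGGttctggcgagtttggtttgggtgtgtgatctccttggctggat
H2-Eb1: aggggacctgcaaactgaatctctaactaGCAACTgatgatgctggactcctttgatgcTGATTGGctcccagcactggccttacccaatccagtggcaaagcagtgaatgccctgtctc
GCAACT started at base -81 of H2-Aa and -91 of H2-Eb1, and TGATTGG at -50 and -61, with 25 and 24 bases between them. Of 32851 promoter windows of 250 bases, searched on both strands, 9.01% held GCAACT, 7.23% TGATTGG and 0.679% both. Windows of 7 class II genes were read, the other 5 being H2-DMa, H2-DMb1, H2-DMb2, H2-Oa and H2-Ob. Of these 7 genes 6 held TGATTGG and 2 held GCAACT. The members Cd74, H2-Ab1, H2-Ea and Ciita are not in these counts, which therefore do not describe all members. Both windows of H2-DMa held neither of these letter strings. A match describes letters in a window and is no evidence of binding.

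Signals below are the deposited linear intensities, of which the mean after trimming is close to 100 on each array. Values under 11 were set to that floor for the tests, and a difference is called only at an adjusted p under 0.05 in limma, adjusted over all 10395 probe sets tested. All 8 probe sets passed the filter for testing, which asked for a signal above the floor on at least 3 arrays. The members outside the MHC are Cd74, at chr18:60803849-60812652, and Ciita, at chr16:10480014-10531064. H2-Ea was above the floor on 10 of 14 arrays and the other members on all 14. The median signal of an array was 38.2 to 45.7, and H2-Aa, H2-Eb1 and Cd74 were far above it in every heart, while Ciita ranged from 39.7 to 116.2.

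H2-Aa, the α chain of H2-A, gave 3788.3, 4153.3 and 3245.5 in rejecting and 4449.3, 2583.5 and 2751.6 in tolerizing allografts at day 7, 912.8, 1318.8 and 1476.3 in isografts at day 7, 5785.3, 4269.9 and 3123.8 in tolerizing allografts at day 70, and 665.5 and 854.4 in isografts at day 70. H2-Ab1, its β chain partner, gave 2188.3, 2962.5 and 2152.9 in rejecting and 2359.6, 1037.2 and 1253.8 in tolerizing allografts at day 7, 268.9, 410.5 and 372.8 in isografts at day 7, 2826.8, 2184.7 and 1663.7 in tolerizing allografts at day 70, and 324.8 and 252.5 in isografts at day 70. H2-Eb1, the β chain of H2-E, gave 3167.3, 3573.1 and 2795.6 in rejecting and 3436.1, 1813.9 and 2398.9 in tolerizing allografts at day 7, 627.4, 1030.1 and 981.7 in isografts at day 7, 4715.5, 3535.1 and 3424.3 in tolerizing allografts at day 70, and 529.3 and 970.3 in isografts at day 70. For these 3 chains the lowest allograft stood above the highest isograft, while the 3 allograft groups overlapped each other along the order of their means. Isografts were not empty of class II: their signals for these chains were well above the median of the array.

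Cd74, the invariant chain, gave 4754.9, 5431.4 and 4296.1 in rejecting and 4270.5, 2709.7 and 4016.7 in tolerizing allografts at day 7, 1243.0, 1796.8 and 2449.1 in isografts at day 7, 5850.9, 4692.4 and 4350.0 in tolerizing allografts at day 70, and 1329.8 and 1341.8 in isografts at day 70. H2-DMa, the peptide exchange factor's α chain, gave 733.7, 1058.1 and 981.4 in rejecting and 1148.9, 627.5 and 661.3 in tolerizing allografts at day 7, 236.7, 355.2 and 295.9 in isografts at day 7, 1119.9, 906.4 and 762.3 in tolerizing allografts at day 70, and 186.7 and 292.9 in isografts at day 70. Ciita, the coactivator, gave 69.4, 116.2 and 82.2 in rejecting and 105.5, 71.6 and 69.7 in tolerizing allografts at day 7, 39.7, 44.3 and 52.5 in isografts at day 7, 108.8, 81.9 and 67.9 in tolerizing allografts at day 70, and 54.0 and 60.5 in isografts at day 70. The ranges again separated allografts from isografts for all 3 genes, by a small margin for Ciita (67.9 against 60.5) and for Cd74 (2709.7 against 2449.1). Rejecting and tolerizing hearts of day 7 overlapped for Ciita and H2-DMa. For Cd74 all 3 rejecting hearts were above all 3 tolerizing ones, but by a very small margin (4296.1 against 4270.5).

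H2-Ea, the α chain of H2-E that only the donor can supply, gave 48.1, 50.4 and 217.3 in rejecting and 408.5, 442.1 and 552.0 in tolerizing allografts at day 7, 3.7, 2.5 and 8.1 in isografts at day 7, 489.0, 537.8 and 446.0 in tolerizing allografts at day 70, and 5.6 and 12.3 in isografts at day 70. Its order was unlike that of the other members: rejecting hearts lay between the tolerizing hearts, which were all higher, and the isografts, of which 1 was above the floor. In all, the 9 allografts stood above the 5 isografts without overlap for 7 of 7 members, and 2.65% of all probe sets tested showed the same separation. For H2-Ea the direction was fixed by the strains, since isografts hold only C57/BL6 cells, which carry the deletion. The counts of members called against isografts below include H2-Ea all the same.

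**Figure D1:**
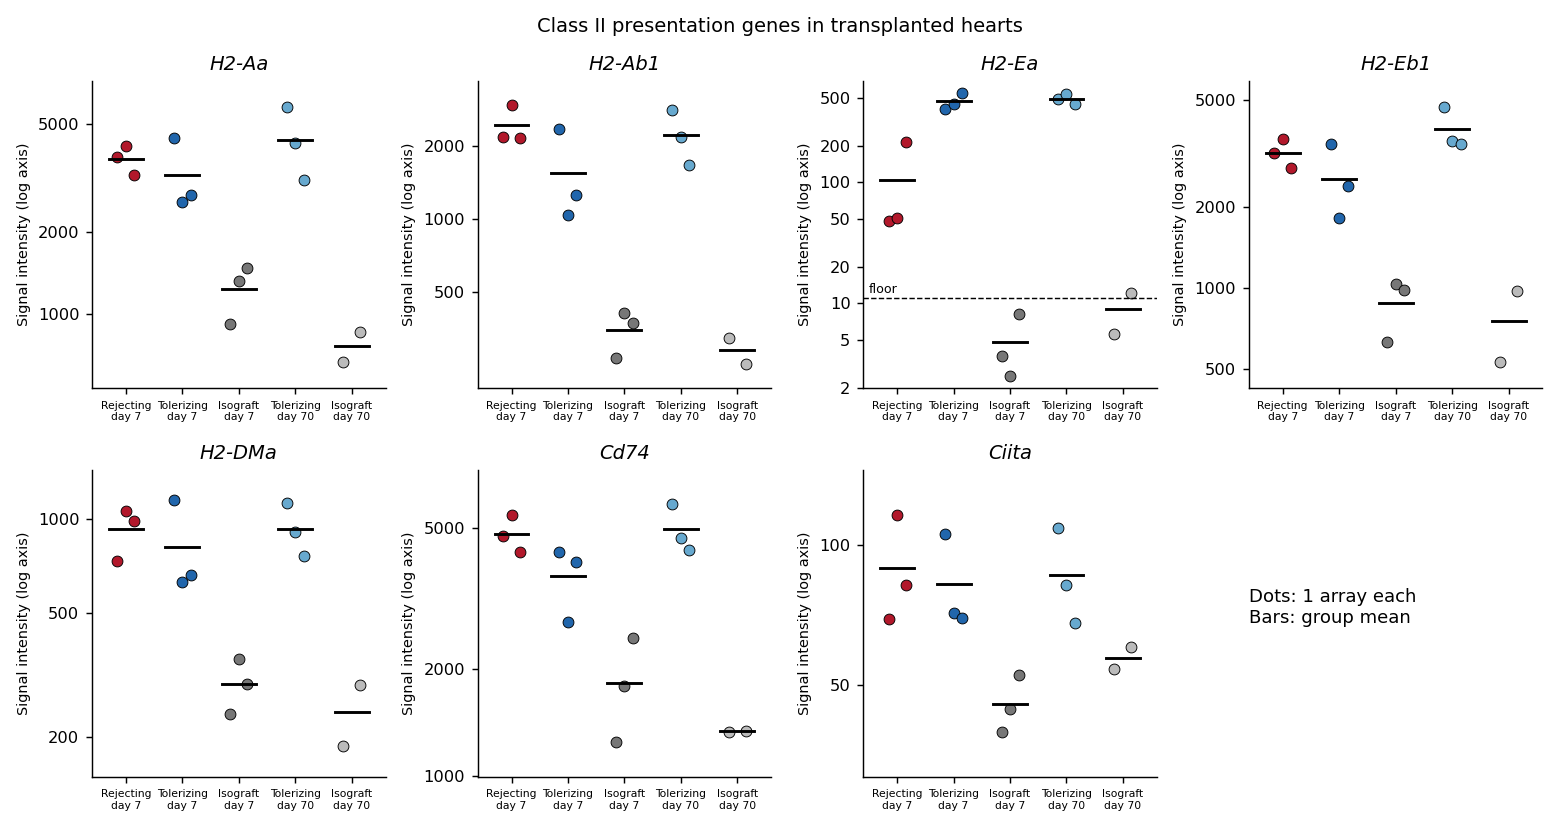
Signal intensity of each class II presentation gene (log axis, deposited linear units) in the 5 groups; each dot is 1 array and each bar a group mean, with 2 arrays in isografts at day 70 and 3 in the other groups. All 9 allografts lie above all 5 isografts for each gene, and the 3 rejecting hearts lie below all tolerizing hearts for H2-Ea.

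At day 7, rejecting allografts, for which no agent is named, were set against isografts, which were transplanted between mice of 1 strain. All 7 members were higher in rejecting hearts, where 8.54% of all probe sets were called higher, and the median log2 difference of the members was 1.65, against 0.037 over all probe sets tested. H2-Ab1 moved most among the genes measured in both groups, 6.97-fold (log2 difference 2.80, SE 0.30, adjusted p = 9.62e-05), with means of 2435 ± 458 in rejecting hearts and 351 ± 73.3 in isografts (SD, n = 3 each; limma). Its partner H2-Aa rose 3.06-fold (log2 1.61, SE 0.29, adjusted p = 0.00217), at 3729 ± 457 in rejecting hearts and 1236 ± 291 in isografts. The 95% intervals of these partners, 2.15 to 3.45 for H2-Ab1 and 0.99 to 2.24 for H2-Aa, overlapped little.
H2-Eb1 rose 3.68-fold, H2-DMa 3.13-fold and Cd74 2.73-fold, with limma adjusted p of 0.00109, 0.00126 and 0.0031. H2-DMa has a dimmer probe set as well, at 172 ± 53.1 in rejecting hearts and 16.6 ± 0.80 in isografts, and its log2 difference of 3.32 was larger than the 1.65 of the brighter one. Ciita had the smallest difference, 1.93-fold (log2 0.95, SE 0.27, adjusted p = 0.0259), and without isograft array 1 the adjusted p was 0.0925, without isograft array 2 it was 0.0701 and without rejecting array 2 it was 0.12. The β-actin ratio, whose 3′ over 5′ signal is read as a sign of RNA quality, was 1.26 to 1.61 in rejecting hearts and 1.52 to 1.98 in isografts, and with it as a covariate 6 of 7 members were called, Ciita no longer (adjusted p = 0.0729). Ciita was also the 1 member lost in a fit of both groups only (adjusted p = 0.0682) and in the arrays listed later by the submitters (0.0607). H2-Ea, at or under the floor in the 3 isografts, was at least 7.34-fold higher (adjusted p = 0.000798), and at least 4.48-fold without rejecting array 3. With a floor of 41.4, near the signals of rejecting arrays 1 and 2, H2-Ea was not called (adjusted p = 0.121). In bulk tissue, more cells that carry class II and more RNA per cell cannot be told apart.

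Under costimulation blockade at day 7, 5 of 7 members were higher in tolerizing allografts than in isografts, where 0.943% of all probe sets were called higher. Their median log2 difference was 1.42, against -0.018 over all probe sets. H2-Ab1 rose 4.21-fold (log2 2.07, SE 0.30, adjusted p = 0.0027), with 1550 ± 709 in tolerizing hearts and 351 ± 73.3 in isografts (SD, n = 3 each; limma). H2-Eb1 rose 2.87-fold, H2-DMa 2.68-fold and H2-Aa 2.61-fold, with limma adjusted p of 0.021, 0.0171 and 0.0283. The dimmer probe set of H2-DMa rose 5.86-fold (limma adjusted p = 0.0101). Cd74 at 2.04-fold (adjusted p = 0.0974) and Ciita at 1.79-fold (adjusted p = 0.173) were not called, although both had an unadjusted p under 0.05 and no overlap between groups. H2-Ea was at least 42.2-fold higher (log2 5.40, adjusted p = 2.88e-05), a lower bound set by the floor. The calls of H2-Aa, H2-Eb1 and H2-DMa depended on single hearts: 2 members were called without tolerizing array 1 or without isograft array 1, and 3 without tolerizing array 3. In these fits 76, 97 and 79 probe sets were called in all, instead of 176. The β-actin ratio was 1.09 to 1.37 in tolerizing hearts and 1.52 to 1.98 in isografts, without overlap. With this ratio as a covariate only H2-Ea was called of the members, and 8 of 10395 probe sets in all. Ratio and group go together here, so the fit can hardly separate them.

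At day 70 tolerizing allografts had 6 of 7 members higher than isografts, where 2.35% of all probe sets were called higher, and the members' median log2 difference was 2.43, against -0.09 over all probe sets. H2-Ab1 was 7.59-fold higher (log2 2.92, SE 0.34, adjusted p = 0.000306), at 2225 ± 583 in tolerizing hearts (n = 3) and 289 ± 51.1 in isografts (n = 2). H2-Aa was 5.65-fold higher (log2 2.50, SE 0.33, adjusted p = 0.000815), at 4393 ± 1335 in tolerizing hearts and 760 ± 134 in isografts. H2-Eb1 rose 5.37-fold, H2-DMa 3.93-fold and Cd74 3.69-fold, with limma adjusted p of 0.00119, 0.00265 and 0.00412. The dimmer probe set of H2-DMa was 11.4-fold higher (limma adjusted p = 0.00162). H2-Ea was at least 42.1-fold higher (adjusted p = 4.88e-05), a lower bound because 1 of the 2 isografts was under the floor and the other, at 12.3, just above it. Ciita was not called (log2 0.57, adjusted p = 0.407), at 86.2 ± 20.8 in tolerizing hearts and 57.3 ± 4.60 in isografts. Without isograft array 1, which was the lowest isograft for 6 of 7 members, H2-DMa and Cd74 lost their calls (adjusted p of 0.0649 and 0.0531). The β-actin ratio was 1.24 to 1.69 in tolerizing hearts and 1.75 to 1.76 in isografts, and with it as a covariate 6 members were again called.

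**Figure D2:**
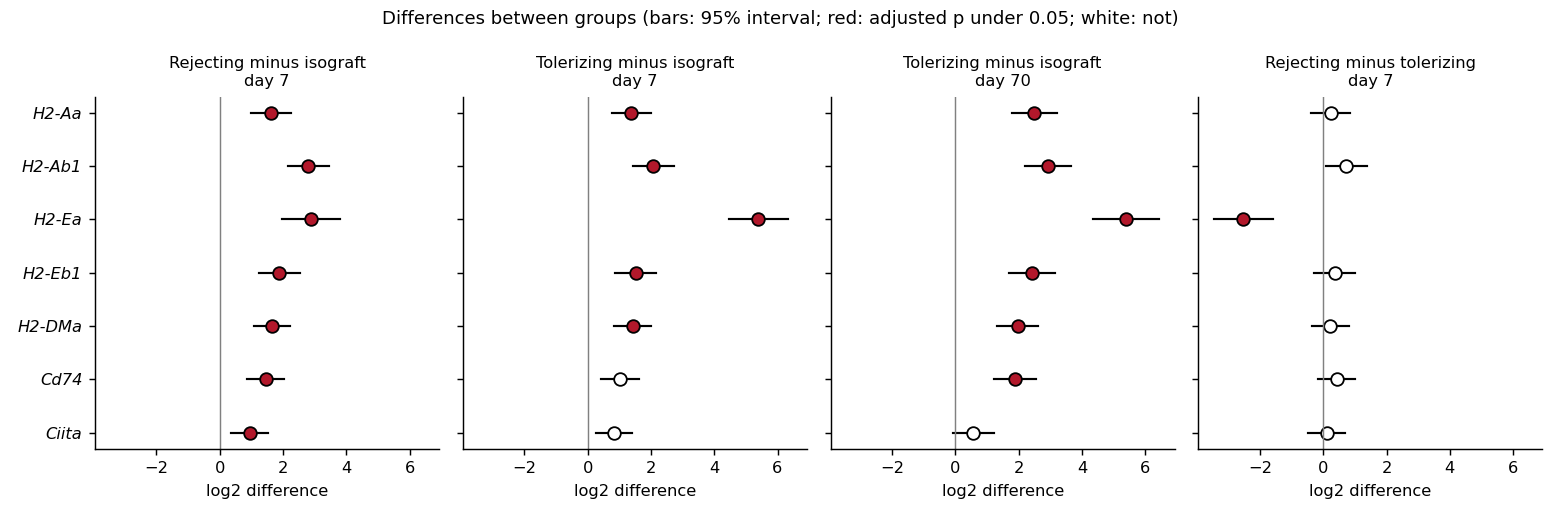
Log2 differences of the 7 genes (x axis) in the 4 comparisons within a day, first-named group minus second; dots are limma estimates, bars 95% intervals, red dots are called at an adjusted p under 0.05 and white dots are not. Against isografts 7, 5 and 6 of 7 genes were called higher, each count including H2-Ea, whose deletion all cells of isografts carry. Between rejecting and tolerizing hearts only H2-Ea, at -2.52, was called.

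Over time, 0 of 7 members were called between tolerizing allografts of day 70 and day 7, with 0.0385% of all probe sets called, and 1 member had an unadjusted p under 0.05 in limma. That was H2-Eb1, with a log2 difference of 0.64 (95% interval 0.00 to 1.29, adjusted p = 0.804). The dimmer probe set of H2-DMa, which does not stand for the gene, differed by 0.98 (limma, unadjusted p = 0.0475, adjusted p = 0.794). H2-Ea differed by 0.08, with an interval of -0.85 to 1.00. Hearts of these groups that share a replicate number deviated together, so the numbers were also used as a block. Within the 3 same-numbered pairs H2-Aa, H2-Ab1, H2-Eb1 and Cd74 were higher at day 70 in all 3, by 0.46, 0.96 and 0.51 for H2-Eb1, and H2-DMa, H2-Ea and Ciita in 2 of 3. With the replicate block 0 of 7 members were called, both in the fit of all arrays, where 12 probe sets in all were called instead of 4, and in a fit of the 6 tolerizing hearts alone. There 108 of 9483 probe sets were called, and H2-Eb1 had an adjusted p of 0.103 (SE 0.14). In isografts 0 of 7 members were called between day 70 and day 7 (0% of all probe sets), none at an unadjusted p under 0.05 either, and the largest difference was -0.68 for H2-Aa (95% interval -1.38 to 0.02). The test of whether the difference between tolerizing hearts and isografts itself changed with the day called 0 of 7 members (0% of all probe sets), with 1 at an unadjusted p under 0.05 in limma. H2-Aa had the largest such change, 1.11 with a 95% interval of 0.17 to 2.05 (adjusted p = 1).

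Rejecting and tolerizing allografts share donor and recipient strain, and they differ at day 7 in the antibodies given. H2-Ea was the only member called: it was 5.74-fold lower in rejecting hearts (log2 -2.52, 95% interval -3.45 to -1.60, SE 0.43, adjusted p = 0.0126), at 105 ± 97.0 in rejecting and 468 ± 75.1 in tolerizing hearts (SD, n = 3 each; limma). In this comparison 0.885% of all probe sets were called lower and 0.529% higher. Leaving out rejecting array 3, the highest of the 3 at 217.3, gave a 9.42-fold lower signal (adjusted p = 6.03e-06). The call was lost without rejecting array 2 (adjusted p = 0.062), without tolerizing array 2 (0.0614) and without tolerizing array 3 (0.0577), with log2 differences of -2.18, -2.56 and -2.40. When limma was given only these 6 arrays, the call was lost as well, at an adjusted p of 0.109. With the β-actin ratio as a covariate the adjusted p was 0.0603 (log2 -2.40), and with no filter on low signals it was 0.0548. The β-actin ratio was 1.26 to 1.61 in rejecting and 1.09 to 1.37 in tolerizing hearts, and its part in the difference was not tested further.

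The other 6 members pointed the opposite way, with log2 differences of 0.11 to 0.73 and no call. H2-Ab1 had the largest, 0.73 (95% interval 0.08 to 1.38, adjusted p = 0.266). It was called only when arrays were weighted by their quality (log2 1.06, adjusted p = 0.0169), where 1497 of 10395 probe sets were called instead of 147. Without weights, Cd74 differed by 0.42, H2-Eb1 by 0.36, H2-Aa and H2-DMa by 0.23 each and Ciita by 0.11. The interval of H2-Aa ran from -0.40 to 0.86 and that of Cd74 from -0.18 to 1.01. For H2-Aa and Cd74 these data thus leave room for a rise of up to about 1 on the log2 scale and for a smaller fall.

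The same difference can be read within arrays, which restates the lower H2-Ea signal, as the other 6 members differed little. Log2 of H2-Ea over H2-Eb1, the chain with which its product pairs, differed by -2.88 between rejecting and tolerizing hearts of day 7 (rejecting minus tolerizing). It was -2.75 over H2-Aa, -3.25 over H2-Ab1, -2.75 over H2-DMa, -2.94 over Cd74 and -2.63 over Ciita. In none of the 6 ratios did the groups overlap, and the exact permutation test, two-sided, gave p = 0.1 for each, the smallest that 3 against 3 arrays allow. Without rejecting array 3 the ratio over H2-Eb1 was -3.68. Of the 7 members, H2-Ea alone had every rejecting heart below the 6 tolerizing hearts of both days, a pattern that 4.31% of all probe sets showed.

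The likeness of genes was measured as the root mean square difference of their log2 signals over the 14 arrays, each gene centred on its own mean, so that 0 means the same profile. It describes these hearts, which share a group structure, and carries no test. H2-Aa and H2-Eb1 were the closest pair of members at 0.213, followed by H2-Aa with H2-DMa at 0.232, whereas H2-Ea was 1.61 to 2.15 away from the other 6. For Cd74 the nearest gene was H2-D1 at 0.201, a class I heavy chain, and for H2-Ab1 it was H2-DMb1 at 0.332, the β chain of H2-DM. Among the 5 nearest genes of H2-DMa and H2-Eb1 was Irf8, at 0.253 and 0.329, a transcription factor of macrophages and dendritic cells. Ciita had Abcg1 (0.206), Ctps (0.214) and Batf3 (0.23) as its nearest genes.
H2-Ea lay nearest to Pdxdc1 at 0.472 and then at a distance to Igtp at 1.08, an interferon-induced GTPase. Over the 9 allografts alone, which removes the difference of donor strain, the nearest genes of H2-Ea were Mb at 0.236, the oxygen store of heart muscle, and Myl2 at 0.351, a ventricular myosin light chain. Eno3 at 0.395, Dpt at 0.403 and Ldhb at 0.416 came next. None of the 5 nearest genes of H2-Ea were shared between the lists over 14 and over 9 arrays. H2-Aa and H2-Eb1 were 0.162 apart over the 9 allografts. There each had a nearer gene, Pck1 at 0.118 for H2-Aa and Cd74 at 0.149 for H2-Eb1.

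Mb gave 363.1, 473.4 and 2204.6 in rejecting hearts, against 3122.1, 4332.0 and 3564.7 in tolerizing hearts of day 7. It was 5.03-fold lower in rejecting hearts (log2 -2.33, SE 0.51, adjusted p = 0.0388), and rejecting array 3 was the highest of its group as it was for H2-Ea. Mb was picked as the gene nearest to H2-Ea over these same allografts, so this likeness follows from the choice and is no separate result. On array 3 of each group with 3 arrays, the signal of an 18S ribosomal RNA control was 30.3 to 83.4. On arrays 1 and 2 of these groups it was 171.6 to 254.6. This control signal was not used in any fit. Between rejecting hearts and isografts of day 7, 1842 of 10395 probe sets were called, 888 of them higher in rejecting hearts. All 7 cardiomyocyte markers on the array (Myh6, Actc1, Tnnt2, Tnni3, Myl2, Ryr2 and Mb) were lower in rejecting hearts than in isografts, and their summed signal was 3447 to 16467 in rejecting hearts, 17226 to 25388 in tolerizing hearts and 26022 to 38983 in isografts of day 7. At day 70 the sums were 24047 to 33455 in tolerizing hearts and 31394 to 38644 in isografts. Against tolerizing hearts of day 7, where 0.885% of all probe sets were called lower, Mb was the 1 marker of the 7 called lower. All 7 had an unadjusted p under 0.05 in limma. Of 7 endothelial markers 4 were lower in rejecting hearts than in isografts, and Tek, an endothelial receptor, was also lower than in tolerizing hearts (log2 -1.43, adjusted p = 0.0224). The part of this loss of heart and vessel signal in the lower H2-Ea signal was not tested.

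**Figure D3:**
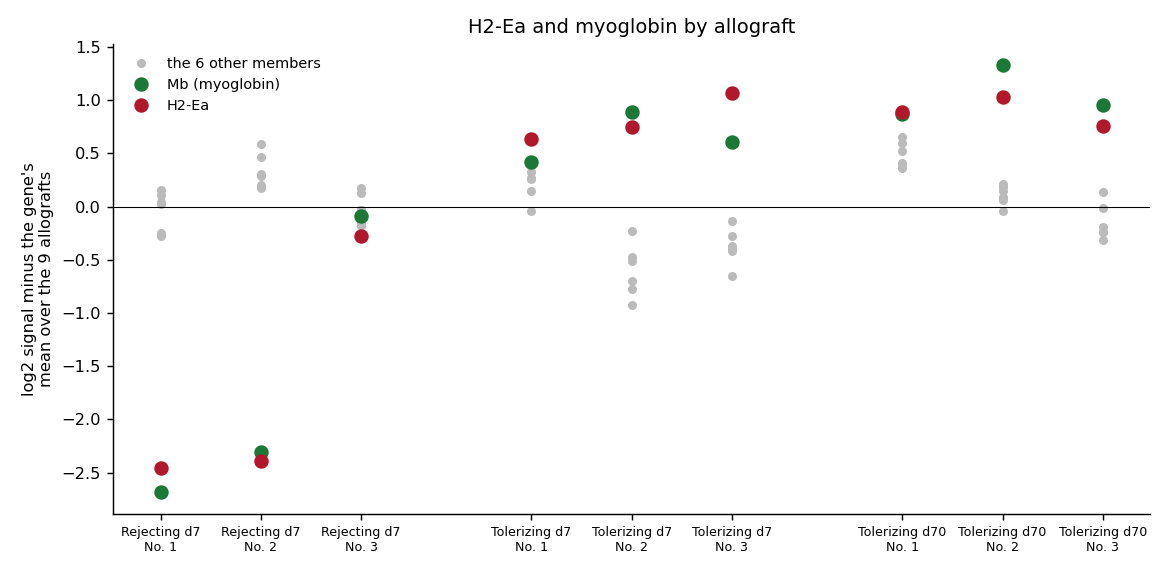
Log2 signal of H2-Ea (red), Mb (green) and the 6 other class II presentation genes (grey) in each of the 9 allografts, relative to the mean of each gene over the allografts. In rejecting arrays 1 and 2 H2-Ea stands at -2.45 and -2.39 and Mb at -2.69 and -2.30, while in rejecting array 3 they stand at -0.28 and -0.08. The grey dots of arrays 1 and 2 lie closer to 0. Mb was picked as the gene nearest to H2-Ea over these 9 allografts, so the likeness of both genes is no separate result.

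Within groups, the same arrays were high for most members. Rejecting array 2 was the highest of its group for 6 of 7 members, tolerizing array 1 of day 7 for 6 and tolerizing array 1 of day 70 for 6, and the exception was H2-Ea each time. At the low end, tolerizing array 3 of day 70 was the lowest of its group for all 7. Its median signal was also the lowest of that group, at 38.2 against 40.8 and 39.75. Tolerizing array 1 had the highest median of its group at both days, 43.7 and 40.8. Rejecting array 2, at 43.6, had a lower median than rejecting array 1, at 45.65. How many of all probe sets follow these orders was not counted. The tolerizing group of day 7 had a wide spread, with a coefficient of variation of 45.8% for H2-Ab1 and 31.6% for H2-Aa, against 18.8% and 12.2% in rejecting hearts. H2-Ea reversed this: its coefficient of variation was 16.1% in tolerizing hearts and 92.2% in rejecting hearts. In tolerizing hearts of day 7 the array with the lowest H2-Ea signal, array 1, had the highest signal for the other 6 members.

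Of 19 other genes that class II presentation needs or that regulate it, 15 were on the array and tested. Between rejecting hearts and isografts 1842 of 10395 probe sets were called, 888 of them (8.54% of all) higher in rejecting hearts. Of the 15 genes 4 were higher in rejecting hearts and 1 was lower, with a median log2 difference of 0.49. The largest rise was that of Ifi30, the thiol reductase that opens disulfide bonds of antigens in the endosome: it gave 553.2, 565.9 and 625.8 in rejecting hearts, against 68.1, 56.2 and 86.6 in isografts. This was 8.39-fold (log2 3.07, SE 0.37, adjusted p = 0.000228), with no overlap. H2-DMb1, which pairs with H2-DMa, rose 5.74-fold (log2 2.52, adjusted p = 0.000436). Ctss, cathepsin S, the protease that makes the last cuts in the invariant chain, rose 4.37-fold (log2 2.13, adjusted p = 0.000782), at 4126 in rejecting hearts and 940 in isografts on average. Lgmn, the legumain protease, rose 1.82-fold (adjusted p = 0.0332), and Nfyc, a subunit of NF-Y, was 1.51-fold lower (adjusted p = 0.0216).

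Against isografts, 0.943% of all probe sets were called higher in tolerizing hearts at day 7 and 2.35% at day 70. Ifi30, H2-DMb1 and Ctss were also the 3 of these 15 genes called higher in tolerizing hearts, at both days, and none was called lower. Their log2 differences from isografts were 1.95, 1.58 and 1.50 at day 7 (limma adjusted p of 0.0186, 0.0311 and 0.0284) and 2.19, 2.58 and 2.57 at day 70 (0.0109, 0.00194 and 0.00119). H2-DMb1 gave 776.3, 293.6 and 294.3 in tolerizing hearts of day 7, against 137.9, 139.9 and 131.0 in isografts. Tolerizing array 1 was thus the highest of its group for H2-DMb1 as for most members. Between rejecting and tolerizing hearts 0 of the 15 were called in limma (147 of 10395 probe sets in all), and 3 had an unadjusted p under 0.05.

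**Figure D4:**
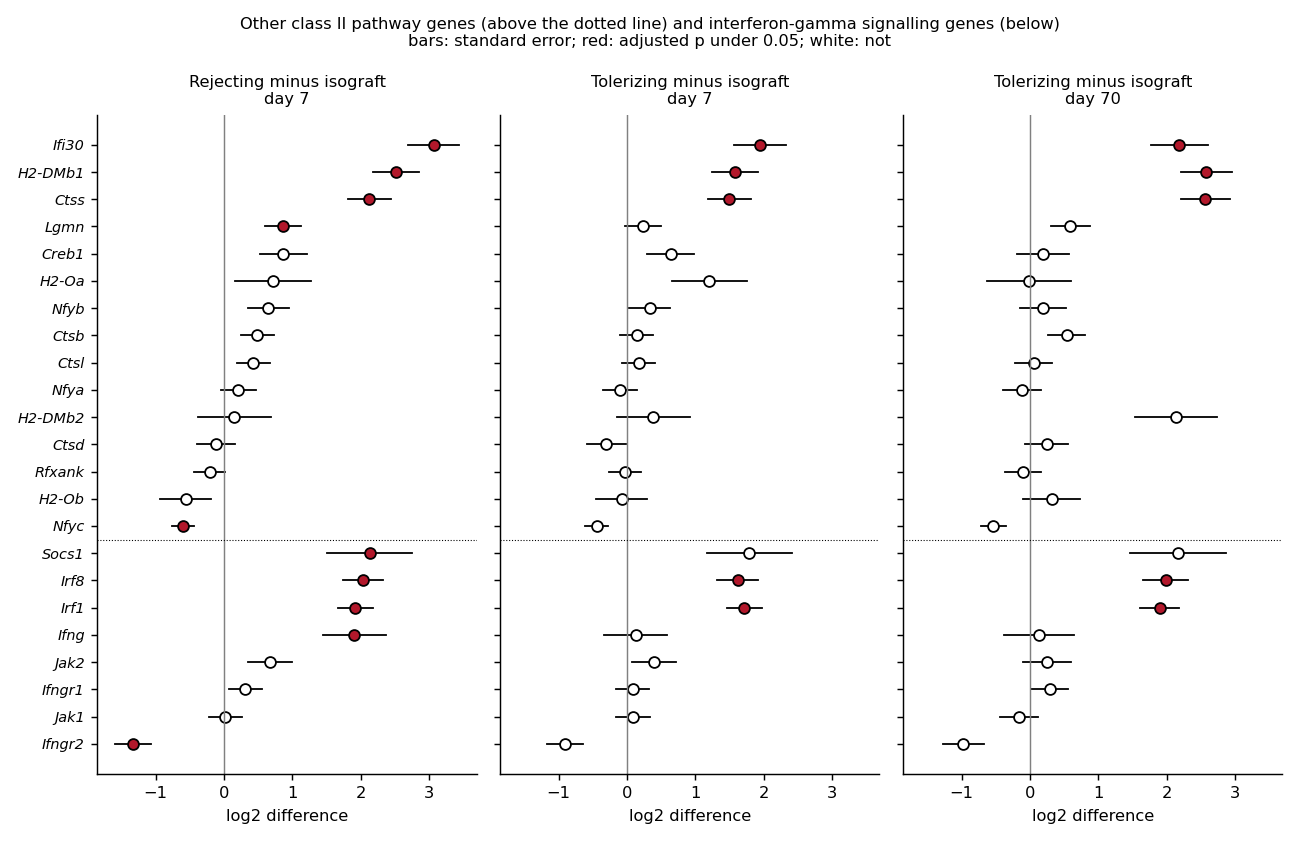
Log2 differences from isografts (x axis, with standard errors as bars) of 15 further class II pathway genes and 8 genes of interferon-γ signalling, in rejecting hearts of day 7, tolerizing hearts of day 7 and tolerizing hearts of day 70; red dots are called at an adjusted p under 0.05. Ifi30, H2-DMb1, Ctss, Irf1 and Irf8 are red in all 3 panels, and Ifng, at 1.91, is red in rejecting hearts only.

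Interferon-γ and its signalling genes were read because they act upstream of Ciita. Of 10 listed genes 8 were tested, and in rejecting hearts 4 were higher than in isografts and 1, the receptor chain gene Ifngr2, was lower (log2 -1.34, adjusted p = 0.00381). In that comparison 1842 of 10395 probe sets were called, 888 of them higher. Ifng gave 17.9, 35.2 and 111.5 in rejecting hearts, against 0.9, 0.4 and 1.7 in isografts, which are all under the floor, so it was at least 3.75-fold higher (adjusted p = 0.0112). In tolerizing hearts of day 7 it gave 14.3, 2.9 and 7.7, and 1 of 3 was above the floor. The difference of Ifng between rejecting and tolerizing hearts was not called (log2 1.78, adjusted p = 0.0803). Irf1 and Irf8, transcription factors induced by interferon-γ, were higher in all 3 allograft groups: Irf1 by 1.92 in rejecting hearts, by 1.72 in tolerizing hearts of day 7 and by 1.90 at day 70, and Irf8 by 2.03, 1.62 and 1.99 (log2). Their limma adjusted p ranged from 0.000436 to 0.0131. In tolerizing hearts of day 70 Ifng gave 14.4, 9.9 and 6.4. The part of interferon-γ in the level of the class II genes was not tested.

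Markers of the cells that could carry class II moved unequally. Of all 10395 probe sets, 1842 were called between rejecting hearts and isografts, 888 of them higher in rejecting hearts. In tolerizing hearts 0.943% were called higher than in isografts at day 7 and 2.35% at day 70. Of 9 macrophage markers 7 were higher in rejecting hearts than in isografts, Itgam 7.13-fold and Fcgr1 4.41-fold among them, and Mrc1 was lower (log2 -1.71, adjusted p = 0.00793). The summed macrophage signal was 4789 to 5851 in rejecting hearts, 2957 to 3931 in tolerizing hearts and 2206 to 2646 in isografts of day 7. At day 70 it was 2775 to 3896 in tolerizing hearts and 889 to 2018 in isografts. In tolerizing hearts 0 of 9 were called at day 7 in limma (2 at an unadjusted p under 0.05) and 2 at day 70, Lyz2 and Csf1r, both higher. Isograft array 1 of day 70 was the lower of 2 for both, at 288.8 against 834.6 for Lyz2 and 168.0 against 286.9 for Csf1r. Csf1r was 392.9 to 448.4 in tolerizing hearts of day 70, which overlapped isografts of day 7 at 393.0 to 409.1. The summed members were 13771 to 17345 in rejecting and 9286 to 16178 in tolerizing hearts of day 7, 3332 to 5636 in isografts of day 7, 13838 to 20896 in tolerizing hearts and 3096 to 3785 in isografts of day 70. At day 70 tolerizing hearts had member sums that overlapped those of rejecting hearts of day 7, and lower macrophage sums. These groups differ in day and in antibodies, and bright probe sets weigh most in the sums. How the sums relate was not tested.

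Against isografts, 8.54% of all probe sets were called higher in rejecting hearts, 0.943% in tolerizing hearts of day 7 and 2.35% at day 70. Of 9 dendritic cell markers Itgax, the CD11c integrin chain, was called, with log2 differences of 1.14 in rejecting hearts (adjusted p = 0.00456) and 1.39 in tolerizing hearts of day 70 (adjusted p = 0.00975). The summed dendritic cell signal overlapped between all groups of day 7, at 792 to 1252 in rejecting hearts, 838 to 1370 in tolerizing hearts and 992 to 1147 in isografts. Of the isograft sums Fscn1 alone gave 536.2, 572.4 and 682.0, so the sum says little about the other markers. At day 70 the sums were 1196 to 1489 in tolerizing hearts and 898 to 1249 in isografts. B cell markers were called in 0 of 7 cases in each comparison, with at most 1 at an unadjusted p under 0.05 in limma. Their summed signal was 212 to 573 in rejecting hearts, 179 to 296 in tolerizing hearts and 214 to 321 in isografts of day 7. Cr2, a complement receptor of B cells, was under the floor on all 14 arrays, and Fcer2a, the B cell receptor CD23, was above it on 3. Of 8 T cell markers 6 were higher in rejecting hearts than in isografts, 2 in tolerizing hearts of day 7 and 1 at day 70. Neutrophil markers were higher for 2 of 6 in rejecting hearts and for none in tolerizing hearts (0 at an unadjusted p under 0.05 at day 7 and 1 at day 70, limma). The part of these cells in the level of the class II genes was not tested.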

How the data were processed

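The authors deposited linear signal intensity for 12488 probe sets on 14 arrays, with a trimmed mean of 100.1 on every array. Their software was not given in the sources used here, nor was their scaling. After 66 control probe sets were left out, signals under 11 (the 25th percentile) were set to this floor and log2 was taken, with no further scaling. Probe sets that exceeded the floor on 3 or more arrays (10395, for 7366 genes) were fitted with limma 3.58.1 in R 4.3.3: 5 group means in 1 fit, eBayes with an intensity trend, 9 residual degrees of freedom, two-sided p-values, Benjamini-Hochberg adjustment over all probe sets and a threshold of 0.05. The brightest probe set stood for a gene. Probe sets were named by the array's annotation, with symbols updated through RefSeq (GRCm38.p6). Folds against a group wholly at the floor are lower bounds. Between tolerizing hearts of day 70 and day 7 the replicate numbers of the labels were taken as pairs, because deviations from the group means correlated at 0.25 to 0.34 in 3 of 3 same-numbered pairs. Exact permutation tests used scipy 1.17.1. The fit was tested on simulated data, with changes set in probe sets well above the floor. Of log2 differences of 1, 35% to 50% were called in the 6 comparisons, and of those of 2, 93% to 97%. For a difference of 1 between the days it was 43% in tolerizing hearts and 37% in isografts.

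The members, gene lists and alternatives were chosen with earlier results of these data known. Named are all members, at most 4 called genes with the smallest p per list and comparison, markers at the floor, and the 5 genes nearest to each member in root mean square distance. Lgmn and Mrc1, outside these rules, are named because a count of 5 or fewer rests on them, and the further H2 genes because their promoters were read. The number of arrays limits the precision. Alternatives are given in the closing part.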

Additional observations from a re-analysis of the deposited data

How the results depend on the processing

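The 19 calls of single members were refitted under 374 alternatives in all, of which 339 kept the call, 35 lost it and 0 changed its direction. Tolerizing against isograft hearts at day 7 was the least stable comparison, with 5 members among 176 of 10395 probe sets called. In their place there were 2 with no filter on low signals (103 of 12422 probe sets called in all). There was 1 in the 9 arrays listed later by the submitters (64 of 10127) and 1 with the β-actin ratio as a covariate (8 of 10395). When single arrays were left out there were 2 to 6 (76 to 136 probe sets in all). Between rejecting and tolerizing hearts 1 member was called, among 147 of 10395 probe sets. In its place there were 0 with no filter (63 of 12422), 2 with array weights (1497 of 10395) and 0 when only the groups compared were fitted (34 of 9605). With the β-actin covariate there were 0 (43 of 10395), and 0 to 1 when single arrays were left out (36 to 771 probe sets in all). With a floor at the 50th percentile (41.4) H2-Ea lost its call between rejecting hearts and isografts (log2 0.96, adjusted p = 0.121). Outside tolerizing hearts of day 70 and day 7, no 2 groups had all their same-numbered hearts correlated above 0.1, and over all groups 11 of 26 pairs were (range -0.18 to 0.34). With the replicate block the counts were 7, 5, 6 and 1 as before, and 0 over time. The replicate block in the 6 tolerizing hearts alone, chosen after seeing the data, gave 0 as well. With the tolerizing hearts of both days (3 against 6), the ratios of H2-Ea differed by -2.58 over H2-Aa, -3.00 over H2-Ab1, -2.60 over H2-Eb1, -2.67 over H2-DMa, -2.75 over Cd74 and -2.64 over Ciita, each with an exact permutation p of 0.02381, the smallest possible, but the day then differs between the groups. The causes of these moves were not tested.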
